A study of Mus musculus with 31 samples.

Results

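The genes examined here are 32 genes of cholesterol synthesis, sterol sensing and cholesterol transport. The choice was by name from the known pathway and not by their values, though earlier results of these data were known. They were found among 55379 genes measured in the mammary gland of 31 lactating C57BL/6J dams, and all 32 passed the filter on low counts, as 14362 genes did in all. Dams were bred from 6 weeks of age and fed a breeder diet with 4 mg/kg folic acid (FA) or the same base diet with 24 mg/kg FA. From embryonic day 13 on they received a daily intraperitoneal injection of saline or of 20 mg/kg fluoxetine, a selective serotonin reuptake inhibitor, and glands were taken on lactation day 10. By the sample labels, 8 dams had breeder diet + saline, 7 breeder diet + fluoxetine, 8 FA diet + saline and 8 FA diet + fluoxetine. The study's methods give other numbers for the 2 fluoxetine groups, and the labels were followed. All dams were wild-type, without an altered allele, and each gave 1 library of polyadenylated RNA from whole gland. The questions were whether fluoxetine, the FA diet or both together went with other levels of these genes, and which of these genes varied together between dams of the same group.

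Cholesterol is built from acetyl-CoA by way of mevalonate, isoprenoid diphosphates, squalene and lanosterol, with one dedicated enzyme for most steps. When sterol in the endoplasmic reticulum is low, SCAP escorts the transcription factor SREBP2 to the Golgi, where it is cleaved, and its released part switches on the genes of this route together. When sterol is plentiful, INSIG proteins hold SCAP back, and oxysterols activate the liver X receptors (LXR), which switch on export pumps and the ubiquitin ligase MYLIP. In lactation, the secretory epithelium makes cholesterol and takes it up from blood, and passes it into the membrane around milk fat globules.

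Promoter windows show the sequence around the transcription start of a gene, and 6 are printed for the genes on which the results below turn. Each window runs from 250 bases before to 50 bases after a RefSeq transcription start, is read 5′ to 3′ on the gene's own strand, and has coordinates of GRCm38.p6, an older build than the GRCm39 of the counts. Capitals mark matches to the sterol regulatory element TCACNCCAC, to the CCAAT box CCAAT and to the E-box CACGTG, on either strand.
Hmgcs1 promoter, chr13:119690101-119690400, plus strand: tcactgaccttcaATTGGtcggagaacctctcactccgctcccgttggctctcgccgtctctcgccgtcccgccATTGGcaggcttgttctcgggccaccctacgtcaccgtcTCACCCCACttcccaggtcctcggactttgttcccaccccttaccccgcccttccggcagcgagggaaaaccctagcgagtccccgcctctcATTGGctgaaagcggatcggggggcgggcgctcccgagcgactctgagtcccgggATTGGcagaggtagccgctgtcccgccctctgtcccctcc
Cyp51 promoter, chr5:4104648-4104947, minus strand: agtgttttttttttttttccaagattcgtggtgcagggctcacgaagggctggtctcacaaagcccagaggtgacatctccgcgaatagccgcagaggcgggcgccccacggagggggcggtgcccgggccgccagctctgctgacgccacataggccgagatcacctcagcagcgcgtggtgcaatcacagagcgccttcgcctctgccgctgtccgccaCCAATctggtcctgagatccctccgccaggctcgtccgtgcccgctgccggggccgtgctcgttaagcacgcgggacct
Msmo1 promoter, chr8:64733529-64733828, minus strand: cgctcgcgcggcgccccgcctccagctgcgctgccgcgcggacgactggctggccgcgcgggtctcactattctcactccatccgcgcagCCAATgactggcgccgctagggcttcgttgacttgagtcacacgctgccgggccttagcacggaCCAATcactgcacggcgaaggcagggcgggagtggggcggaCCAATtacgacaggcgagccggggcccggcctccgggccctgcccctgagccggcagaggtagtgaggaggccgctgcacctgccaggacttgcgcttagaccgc
Insig1 promoter, chr5:28071162-28071461, plus strand: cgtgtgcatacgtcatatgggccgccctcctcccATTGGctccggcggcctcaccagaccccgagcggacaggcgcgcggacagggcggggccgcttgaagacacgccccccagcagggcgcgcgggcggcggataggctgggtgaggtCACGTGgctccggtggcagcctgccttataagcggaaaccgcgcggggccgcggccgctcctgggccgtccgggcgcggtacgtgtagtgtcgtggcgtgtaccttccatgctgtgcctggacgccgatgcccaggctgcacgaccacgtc
Srebf2 promoter, chr15:82147019-82147318, plus strand: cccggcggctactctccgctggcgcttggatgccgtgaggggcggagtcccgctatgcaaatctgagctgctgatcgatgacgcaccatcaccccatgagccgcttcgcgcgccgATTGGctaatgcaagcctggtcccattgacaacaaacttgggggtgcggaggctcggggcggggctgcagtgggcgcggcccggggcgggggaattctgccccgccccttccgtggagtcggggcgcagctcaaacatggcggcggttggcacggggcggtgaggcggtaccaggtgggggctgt
Nr1h3 promoter, chr2:91194986-91195285, minus strand: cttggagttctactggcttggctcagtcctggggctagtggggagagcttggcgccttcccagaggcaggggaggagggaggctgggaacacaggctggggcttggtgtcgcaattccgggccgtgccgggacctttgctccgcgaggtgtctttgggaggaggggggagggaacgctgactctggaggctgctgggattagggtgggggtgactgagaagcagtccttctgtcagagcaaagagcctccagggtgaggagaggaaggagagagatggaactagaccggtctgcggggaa
Of the 32 genes, 26 were in this promoter table. The sterol regulatory element occurred in 1 of the 26, Hmgcs1, at base -137 from the start site, and in 1.44% of 27025 genes in the table. A CCAAT box, the site of the general factor NF-Y, stood in 21 of the 26 and in 41.1% of all genes. The Sp1 box GGGCGG, which binds the general factor Sp1, stood in 22 of the 26 and in 38.2% of all genes. The E-box was found in 6 of the 26 and in 8.09% of all genes, and the LXR element, a direct repeat of AGGTCA with 4 bases between, in 0 of the 26 and 0.0148% of all genes. The Hmgcs1 window held 4 CCAAT boxes and the Msmo1 window 3, whereas both Nr1h3 windows in the table held none of the motifs. No 2 of the marked matches overlapped. These are matches of letters in 1 short window per start site, and occupancy was not measured.

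Total counts per dam ranged from 15412542 to 36000439. Milk transcripts took most counts: the 20 most abundant genes held 39.3% in dam 3 of FA diet + fluoxetine, 60.5% in dam 13 of breeder diet + fluoxetine, 70.1% in dam 3 of FA diet + saline and between 72.6% and 81.0% in the other dams. Dam 3 of FA diet + fluoxetine stood apart in cell type markers as well. Its 8 markers of secretory epithelium summed to 43444 CPM, counts scaled to library size, against 244470 to 745889 in the other 30 dams, and each of the 8 was lowest in it. Its 6 macrophage markers summed to 213 CPM (29.5 to 62.6 in the others) and its 5 fibroblast markers to 719 CPM (40.5 to 232), and each of these 11 genes was highest in it. Its 7 adipocyte markers summed to 963 CPM, where the other dams had 180 to 732, but only 3 of these 7 were highest in it. Values are CPM after TMM normalization, and results that rest on this dam are given with and without it. In whole tissue, fewer cells of a type and less RNA per cell cannot be told apart.

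Per kilobase of exon, the levels averaged over all dams spanned from 31.6 CPM per kilobase for Npc2, the soluble protein that hands cholesterol out of lysosomes, to 0.163 for Abcg1, a cholesterol export pump. Insig1, which encodes an anchor of SCAP and is itself a target of SREBP2, came next to Npc2 with 28.9 CPM per kilobase, ahead of the mevalonate diphosphate decarboxylase Mvd with 11.4. The liver X receptors differed on this scale: Nr1h2 (LXRβ) had 7.17 and Nr1h3 (LXRα) 0.512 CPM per kilobase. The spread between dams of a group, as the median SD of log2 CPM, was 0.484 over these genes and 0.477 over all genes tested. It was smallest for Srebf2 at 0.257, and largest for Idi1 at 1.36.

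In the mevalonate segment, group means are given in CPM in the order breeder diet + saline, breeder diet + fluoxetine, FA diet + saline and FA diet + fluoxetine. Acat2, the thiolase that joins acetyl-CoA units, averaged 36.0, 37.6, 41.2 and 41.1 CPM, with single dams from 17.8 to 60.7. Hmgcs1 (chromosome 13 from 120151915 to 120170470, GRCm39), the synthase that makes HMG-CoA, had a lowest, median and highest value of 7.09, 14.7 and 23.6 CPM in breeder diet + saline. The corresponding values were 10.2, 12.6 and 16.3 CPM in breeder diet + fluoxetine, 9.37, 14.0 and 19.2 CPM in FA diet + saline, and 8.67, 11.4 and 21.9 CPM in FA diet + fluoxetine. The 4 groups overlapped over most of their range, and the widest spread lay within breeder diet + saline, where dams 3 and 10 were lowest of all dams. The kinases Mvk and Pmvk, which add phosphate to mevalonate and its product, averaged 4.54, 4.11, 5.04 and 4.60 CPM and 11.2, 13.2, 14.6 and 14.5 CPM, respectively. Mvd averaged 27.5, 34.8, 31.3 and 30.9 CPM. It shares 20.5% of its exon bases with another annotated gene, and whether reads were counted by strand is not given in the sources used here.

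Idi1, the isomerase that makes the reactive isoprenoid unit, was low and varied more than any other of the genes. Its lowest, median and highest values were 0.264, 3.03 and 3.80 CPM in breeder diet + saline, 0.729, 1.12 and 3.55 CPM in breeder diet + fluoxetine, 0.840, 2.41 and 4.37 CPM in FA diet + saline, and 0.0327, 0.936 and 5.41 CPM in FA diet + fluoxetine. Both ends of the series lay in FA diet + fluoxetine, with 1 count in dam 5 and 144 counts in dam 4. Fdps, the farnesyl diphosphate synthase, averaged 20.8 ± 5.73 (SD, n = 8), 25.6 ± 5.16 (SD, n = 7), 29.5 ± 7.58 (SD, n = 8) and 29.9 ± 14.7 CPM (SD, n = 8). Ggps1, which lengthens farnesyl diphosphate toward geranylgeranylated proteins and away from sterols, averaged 9.14, 10.2, 8.83 and 8.57 CPM.

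Among the squalene enzymes, Fdft1 (squalene synthase) averaged 23.5, 23.5, 22.2 and 22.9 CPM, and 24.8% of its exon bases are shared with Ctsb. Sqle, the epoxidase and a slow step of the route, had lowest, median and highest values of 12.5, 42.1 and 56.6 CPM in breeder diet + saline, 24.0, 29.7 and 54.6 CPM in breeder diet + fluoxetine, 23.8, 42.1 and 61.7 CPM in FA diet + saline, and 6.62, 27.4 and 72.6 CPM in FA diet + fluoxetine. The medians under saline were equal to 3 digits and those under fluoxetine lower, but the fluoxetine dams ranged over both sides of all saline dams. Lss, which closes the rings to lanosterol, averaged 15.6, 17.4, 17.6 and 16.3 CPM.

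Of the enzymes after lanosterol, Cyp51 (chromosome 5 from 4123416 to 4154751), the lanosterol demethylase, had lowest, median and highest values of 11.3, 24.1 and 35.1 CPM in breeder diet + saline, 16.1, 27.2 and 32.2 CPM in breeder diet + fluoxetine, 18.7, 28.3 and 34.1 CPM in FA diet + saline, and 9.79, 25.3 and 45.6 CPM in FA diet + fluoxetine. Overlapping genes, Akap9 among them, share 28.3% of its exon bases. Msmo1 (chromosome 8 from 65170603 to 65186830), the methyl sterol oxidase, had 4.05, 11.05 and 17.7 CPM in breeder diet + saline, 9.28, 11.4 and 14.1 CPM in breeder diet + fluoxetine, 8.23, 13.4 and 15.1 CPM in FA diet + saline, and 6.13, 10.98 and 18.9 CPM in FA diet + fluoxetine. For both genes the groups overlapped and the outermost dams lay in breeder diet + saline or FA diet + fluoxetine. The sterol reductase Tm7sf2 averaged 15.2, 13.1, 16.4 and 14.2 CPM. Nsdhl and Hsd17b7, which complete the removal of the methyl groups with Msmo1, averaged 7.84, 9.52, 11.8 and 9.01 CPM and 25.0, 18.4, 21.9 and 20.2 CPM. The isomerase Ebp averaged 25.1, 29.5, 32.2 and 29.3 CPM, the desaturase Sc5d 20.8, 20.5, 21.9 and 19.6 CPM, and Dhcr7, the reductase of the last step in one branch, 9.51, 10.0, 12.3 and 10.3 CPM. Summed over the 19 synthesis enzymes, transcripts averaged 342 ± 68.2 CPM (SD, n = 8), 356 ± 49.4 (SD, n = 7), 386 ± 58.7 (SD, n = 8) and 359 ± 126 (SD, n = 8), so the group means differed by less than the SD within the groups.

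In the sensing set, Srebf2, which encodes SREBP2, averaged 29.1 ± 5.57 (SD, n = 8), 26.7 ± 5.11 (SD, n = 7), 27.3 ± 3.47 (SD, n = 8) and 25.0 ± 4.12 CPM (SD, n = 8). Scap averaged 35.0, 37.4, 39.7 and 36.4 CPM. Insig1 (chromosome 5 from 28276315 to 28283668) had lowest, median and highest values of 57.5, 137 and 245 CPM in breeder diet + saline, 99.7, 132 and 208 CPM in breeder diet + fluoxetine, 80.9, 155 and 203 CPM in FA diet + saline, and 18.3, 114 and 299.8 CPM in FA diet + fluoxetine. Its paralog Insig2, which is not a target of SREBP2, averaged 7.40, 7.54, 7.54 and 7.31 CPM, with the lowest dam at 3.61 and the highest at 11.3.

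Among transport genes, Stard4, a cytosolic sterol carrier, averaged 9.65, 10.9, 10.9 and 11.2 CPM. Npc1, the lysosomal membrane protein that receives cholesterol from NPC2, averaged 7.97, 7.06, 7.70 and 7.16 CPM, and Npc2 itself 185, 191, 209 and 190 CPM. The export pumps Abca1 and Abcg1 averaged 2.39, 2.70, 2.38 and 3.29 CPM and 1.10, 1.47, 1.26 and 1.24 CPM. Soat1, which esterifies cholesterol for storage, averaged 2.74, 2.43, 2.14 and 2.32 CPM. Of the LXR set, Nr1h2 averaged 25.7, 23.6, 23.3 and 26.6 CPM. Nr1h3 (chromosome 2 from 91014394 to 91033417) had lowest, median and highest values of 1.78, 2.12 and 3.72 CPM in breeder diet + saline, 1.36, 2.02 and 4.13 CPM in breeder diet + fluoxetine, 0.928, 1.53 and 2.64 CPM in FA diet + saline, and 1.43, 2.34 and 15.3 CPM in FA diet + fluoxetine. Mylip (chromosome 13 from 45543215 to 45565501), whose protein marks lipoprotein receptors for degradation, had 4.08, 5.77 and 8.06 CPM, 2.89, 6.04 and 9.19 CPM, 3.44, 4.86 and 7.73 CPM, and 3.28, 7.09 and 25.7 CPM in the same order of groups. The highest values of both genes, and that of Abca1 at 12.1 CPM, came from dam 3 of FA diet + fluoxetine. The next highest dam of that group had 3.25 CPM of Nr1h3, 8.45 CPM of Mylip and 3.47 CPM of Abca1.

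**Figure D1:**
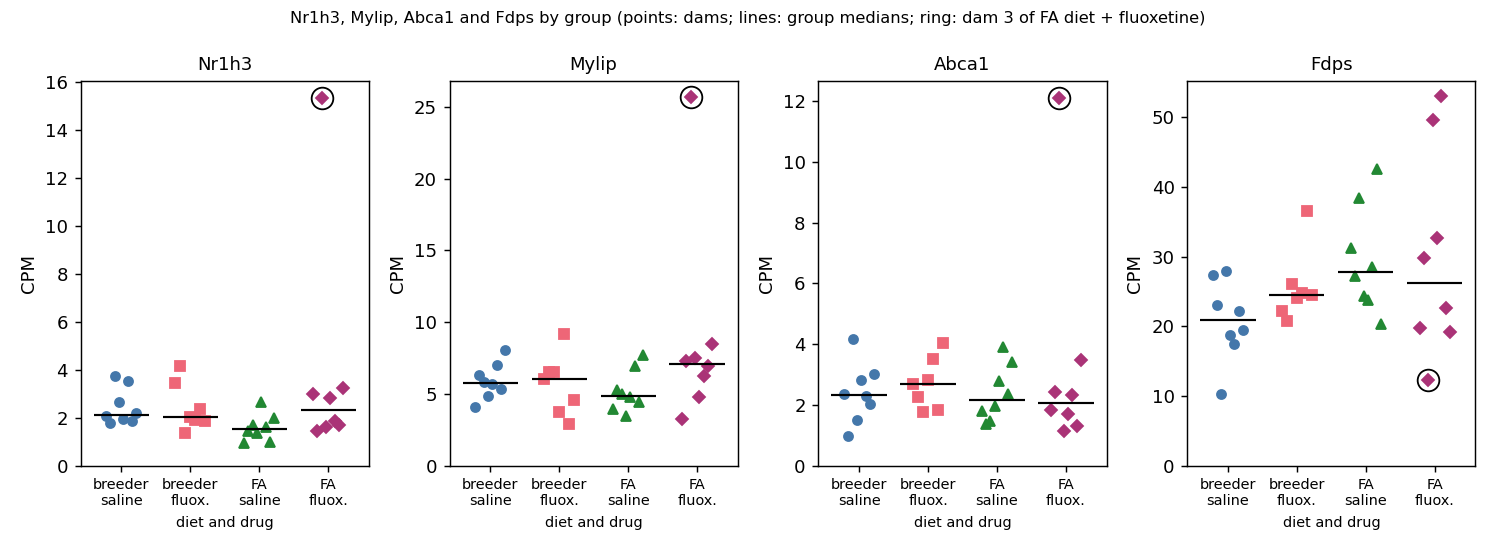
Levels of Nr1h3, Mylip, Abca1 and Fdps in CPM (y axis, linear, from 0) in each dam (points) of the 4 groups (x axis), with horizontal lines at group medians and a ring around dam 3 of FA diet + fluoxetine. The ringed dam has 15.3 CPM of Nr1h3, 25.7 of Mylip and 12.1 of Abca1, above all other dams, while its Fdps level lies low in its group.

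Fluoxetine went with no detected change in the genes of this pathway. In edgeR's quasi-likelihood test, adjusted by Benjamini-Hochberg over 14362 genes, 0 of the 32 genes passed an FDR of 10% between 15 fluoxetine-treated and 16 saline-treated dams, where 0.0209% of all genes tested passed. At an unadjusted p of 0.05 or below stood 1 of the 32, against 9.92% of all genes. DESeq2 and the likelihood ratio test also called 0 of the 32. The share of all genes that these 2 tests called was not counted, here or in the comparisons below. Log2 fold changes were above 0 for 15 genes and below 0 for 17, with a median of -0.013, against 0.019 over all genes. Among the 19 synthesis enzymes 9 were above 0 and 10 below, with values from -0.37 (Idi1) to 0.16 (Mvd). All 4 sensing genes lay below 0 and all 3 LXR genes above, where 7687 of 14362 genes tested lay above. Without dam 3 of FA diet + fluoxetine, 2 of the 4 sensing genes lay above 0 and 2 below, the 3 LXR genes lay above, and 6892 of 14247 genes tested lay above. Precision allowed the statement that for 24 of the 32 genes the 95% interval lay within a 1.5-fold change in either direction, and for 30 within 2-fold.

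That gene was Nr1h3. Saline dams averaged 2.02 ± 0.790 CPM (SD, n = 16) and fluoxetine dams 3.20 ± 3.45 CPM (SD, n = 15), and 10 of 15 fluoxetine dams exceeded the median of saline dams on the same diet. On the log2 scale the difference was 0.64 (standard error 0.269, unadjusted p = 0.0222, adjusted p = 0.442 by edgeR's quasi-likelihood test). Leaving out dam 3 of FA diet + fluoxetine gave 0.23 (standard error 0.183, adjusted p = 0.712). Mylip followed with 0.35 (standard error 0.203, adjusted p = 0.571), or 0.10 without that dam. The marker sums of that dam are given above, and their part in these values was not tested. Srebf2 came next with -0.13 (standard error 0.0954, adjusted p = 0.681), and 3 of 15 fluoxetine dams exceeded the median of saline dams on the same diet. With dam 3 of FA diet + fluoxetine left out, 0 of the 32 genes passed the FDR, where 0.0211% of 14247 genes did. At an unadjusted level of 0.05 were 0, against 9.21%. Without dam 5 of breeder diet + fluoxetine instead, 0 were at that level as well, and the share of all genes was not counted. Within the breeder diet, 0 of the 32 genes differed between fluoxetine and saline at an unadjusted p of up to 0.05, against 4.39% of all genes. Within the FA diet, 2 did, Nr1h3 and Mylip, against 9.98% of all genes. Without dam 3 of FA diet + fluoxetine, 0 did, against 6.11% of all genes, and the log2 fold change within the FA diet was 0.48 for Nr1h3 (1.30 with all dams) and 0.27 for Mylip (0.77 with all dams). Neither diet on its own gave a gene past the FDR (0% of all genes in both).

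The FA diet likewise gave no gene of this set past the threshold. Between 16 FA dams and 15 breeder dams, 0 of the 32 genes passed the FDR of 10%, as did 0% of all genes, and 1 had an unadjusted p of 0.05 or below, against 5.08% of all genes. DESeq2 and the likelihood ratio test called 0 as well. The log2 fold changes were above 0 for 21 of the 32 genes, with a median of 0.053, against 0.017 over all genes. Of the enzymes after lanosterol 7 of 8 lay above 0, where 7746 of 14362 genes tested did. For Fdps, breeder dams averaged 23.0 ± 5.82 CPM (SD, n = 15) and FA dams 29.7 ± 11.3 CPM (SD, n = 16), and 11 of 16 FA dams lay above the breeder median under the same injection. The difference was 0.36 log2 units (standard error 0.163, unadjusted p = 0.0317, adjusted p = 0.933 by edgeR's quasi-likelihood test). Pmvk had 0.26 (standard error 0.160) and Ggps1 -0.15 (standard error 0.107), with adjusted p = 0.933 and 0.935 by the same edgeR test. The 95% interval lay within 1.5-fold for 25 of the 32 genes and within 2-fold for all 32. Under saline alone, 2 of the 32 genes differed between the diets at an unadjusted p of up to 0.05, Fdps and Ebp, against 6.09% of all genes. Under fluoxetine alone, 1 did, Mylip with 0.64 (standard error 0.292), against 3.75%. Without dam 3 of FA diet + fluoxetine, Mylip had 0.16 (standard error 0.219) and 0 of the 32 genes were at that level, against 2.51%. In neither was a gene past the FDR (0% of all genes in both).

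Leaving out dam 3 of FA diet + fluoxetine raised the number of these genes at an unadjusted p of up to 0.05 for the FA diet from 1 to 3, against 6.99% of all genes, and 0 passed the FDR. They were Fdps with a log2 fold change of 0.42, Ebp with 0.24 and Nr1h3 with -0.39. With all dams, Ebp had 0.17 and Nr1h3 0.022, so the value of Nr1h3 for the diet turned with this 1 dam. All 8 enzymes after lanosterol then lay above 0, with a median of 0.21, where 6957 of 14247 genes tested lay above. Several of these enzymes varied together between dams, as given below, so their signs are not separate observations. Leaving out dam 4 of that group instead, 0 of the 32 genes were at an unadjusted level of 0.05 for the diet. The same held without dam 3 of breeder diet + saline. The share of all genes was not counted in these fits.

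For the interaction, the difference between the fluoxetine effects on both diets, 0 of the 32 genes passed the FDR, as did 0% of all genes, and 2 had an unadjusted p of 0.05 or below, against 3.84% of all genes. DESeq2 and the likelihood ratio test called 0. The 2 genes were Nr1h3, with a log2 difference of 1.32 (standard error 0.541, adjusted p = 0.977 by edgeR's quasi-likelihood test), and Mylip, with 0.83 (standard error 0.407, same adjusted p). On the breeder diet alone the log2 fold change of fluoxetine was -0.013 for Nr1h3 and -0.066 for Mylip, and on the FA diet 1.30 and 0.77. Leaving out dam 3 of FA diet + fluoxetine, the interaction was 0.49 for Nr1h3 and 0.34 for Mylip, and 0 of the 32 genes were at an unadjusted level of 0.05, against 3.48% of all genes. Ebp came next with -0.37 (standard error 0.251). Only 2 of the 32 intervals lay within 1.5-fold and 20 within 2-fold, so interactions of moderate size were not detectable for most of these genes.

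**Figure D2:**
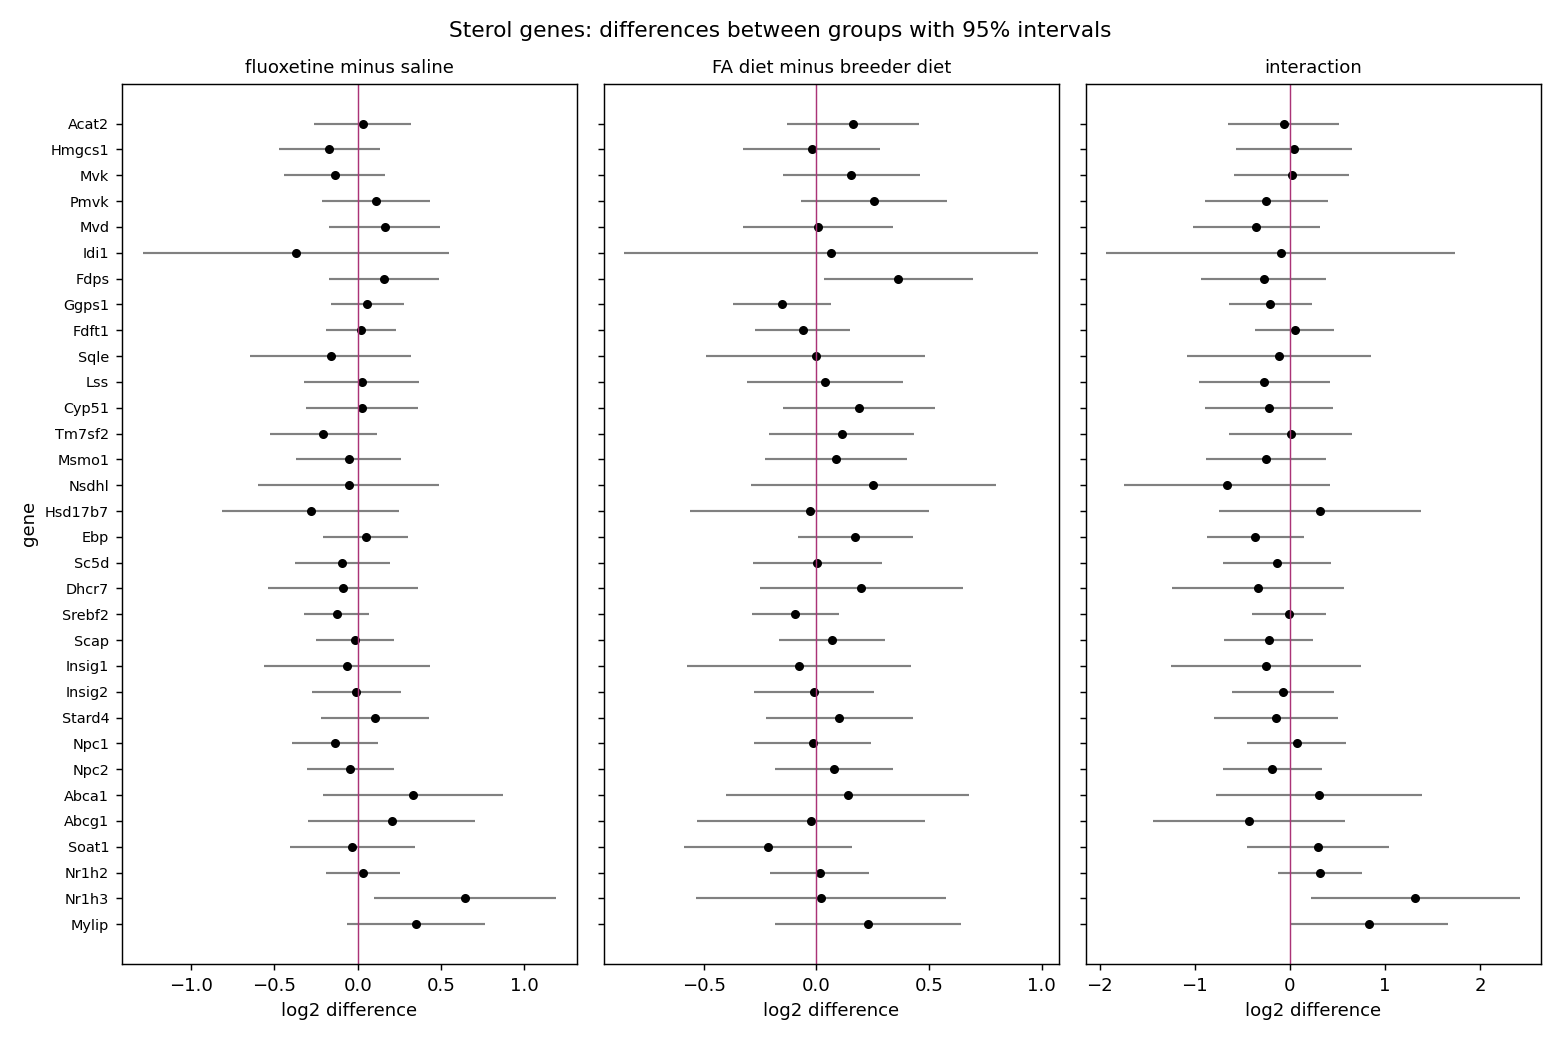
Log2 difference (x axes) of each of the 32 genes (y axis) for fluoxetine, for the FA diet and for their interaction, with points at edgeR estimates and bars for 95% intervals, from 31 dams. The intervals exclude 0 for Nr1h3 under fluoxetine, Fdps under the FA diet, and Nr1h3 and Mylip for the interaction, none of which passed the FDR of 10%.

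Between dams of the same group, 9 of the other 18 synthesis enzymes were higher where Hmgcs1 was higher, by the test of their slopes. Hmgcs1 served as the reference, and the slope of every other gene's log2 CPM on that of Hmgcs1 was fitted in limma with the 4 groups as a factor, over 31 dams. With Benjamini-Hochberg adjustment over 14361 genes and an FDR of 10%, 12 of 31 genes had a positive slope, against 1.47% of all genes, and 1 of 31 a negative slope, against 1.0% of all genes. The slope was above 0 for 17 of the 18 other synthesis enzymes, of which 9 passed the threshold, for 4 of 4 sensing genes with 2 past it, for 3 of 6 transport genes with 1 past it, and for 0 of 3 LXR genes. Over all genes tested, 7034 of 14361 slopes were above 0. The median Pearson r with Hmgcs1, on values centred on group means, was 0.56 over the 18 enzymes and -0.0078 over all genes. Libraries share depth and the milk transcript share, which enter the values of all genes.

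Msmo1 and Cyp51 had the highest Pearson r with Hmgcs1 of the 31 genes. Msmo1 had a slope of 0.89 (standard error 0.121, adjusted p = 2.07e-04 in limma). Its Pearson r was 0.84 (two-sided permutation within groups, p = 1e-05, the smallest that 100000 resamples can give) and Spearman's rho 0.73 (p = 1e-05 by permutation). For Cyp51 the slope was 0.96 (standard error 0.128, adjusted p = 2.07e-04), with r = 0.84 and rho = 0.82 (permutation p = 1e-05 for both). Within the 4 groups the r of Cyp51 was 0.96, 0.88, 0.88 and 0.74, so the relation did not rest on 1 group. Without dams 3 and 10 of breeder diet + saline, which lay farthest out in Hmgcs1, r was 0.75 for Msmo1 and 0.79 for Cyp51. In the promoter windows above, both genes hold CCAAT boxes and no match to the sterol regulatory element as spelled.

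Dhcr7 had a slope of 1.10 (standard error 0.199), r = 0.73 and rho = 0.69 (permutation p = 1.20e-04 and 1.40e-04). Sqle had 1.19 (standard error 0.221), r = 0.72 and rho = 0.78 (permutation p = 1e-05 for both). The carrier Stard4 had 0.78 (standard error 0.150), r = 0.72 and rho = 0.68 (permutation p = 1.50e-04 and 2.10e-04). Insig1 had 1.22 (standard error 0.239), r = 0.70 and rho = 0.77 (permutation p = 8.00e-05 and 2.00e-05). Their limma adjusted p-values were between 0.00849 and 0.0125, and without the 2 dams farthest out their r remained between 0.62 and 0.65. In each of the 4 groups all 6 of these genes had an r above 0. The other genes with a called positive slope were Idi1, Sc5d, Fdps, Srebf2, Mvd and Nsdhl, with r from 0.57 to 0.70. Idi1 had the steepest slope, 2.11 log2 units per log2 unit of Hmgcs1 (standard error 0.412), and Srebf2 the shallowest of the 12, 0.34 (standard error 0.102). Of the 10 genes among Hmgcs1 and these 12 that were in the promoter table, 10 held a CCAAT box and 10 an Sp1 box. Over all genes in that table the shares were 41.1% and 38.2%, and the difference was not tested.

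Acat2, the first enzyme of the route, was the 1 synthesis enzyme without a positive slope, at -0.015 (standard error 0.189), and Ggps1, on the side branch, had 0.11 (standard error 0.130). Lowest in the order of r were Nr1h3, Abca1 and Nr1h2, followed by Npc1 (r = -0.25) and Mylip (r = -0.14). The other export pump, Abcg1, had r = -0.058. Nr1h3 had a slope of -0.94 (standard error 0.229, adjusted p = 0.0455 in limma), with r = -0.62 and rho = -0.75 (permutation p = 7.00e-05 and 3.00e-05), and an r between -0.92 and -0.61 in each of the 4 groups. Leaving out dam 3 of FA diet + fluoxetine, its slope was -0.77 (adjusted p = 0.00639) and its r -0.73. Without dam 4 of that group, however, the slope of -0.95 no longer passed the threshold (adjusted p = 0.124). Abca1 had r = -0.43 (permutation p = 0.0325) and rho = -0.42 (p = 0.0287 by permutation), both p-values unadjusted for the choice of genes by r. Its slope did not pass the threshold (adjusted p = 0.237 in limma). Nr1h2 had r = -0.27 (permutation p = 0.211) and rho = -0.30 (p = 0.141 by permutation). Without the 2 dams farthest out in Hmgcs1, r was -0.61 for Nr1h3, -0.41 for Abca1 and -0.22 for Nr1h2.

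**Figure D3:**
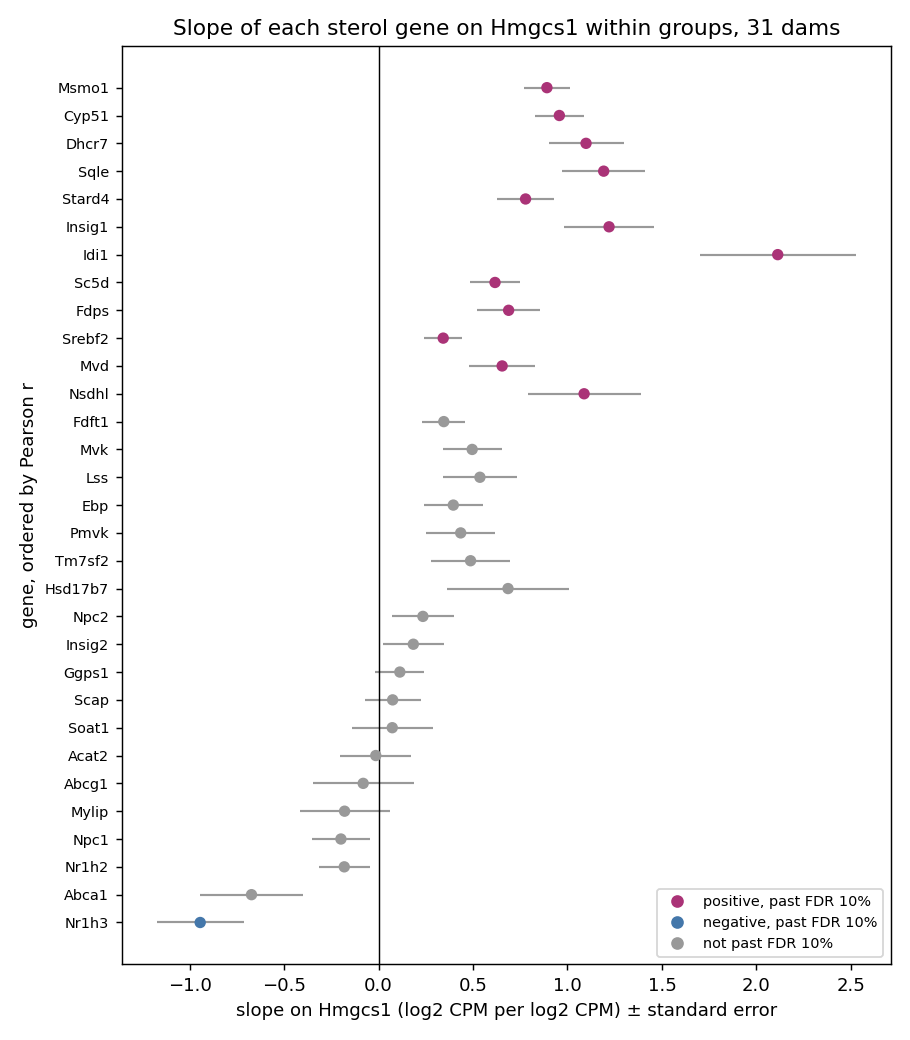
Slope on Hmgcs1 (x axis, log2 CPM per log2 CPM) of the other 31 genes (y axis, ordered by Pearson r), with points at the limma estimate and bars of 1 standard error, from 31 dams with the 4 groups as a factor. Colours mark the 12 positive slopes and the 1 negative slope (Nr1h3) past an FDR of 10%, and grey points did not pass it.

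**Figure D4:**
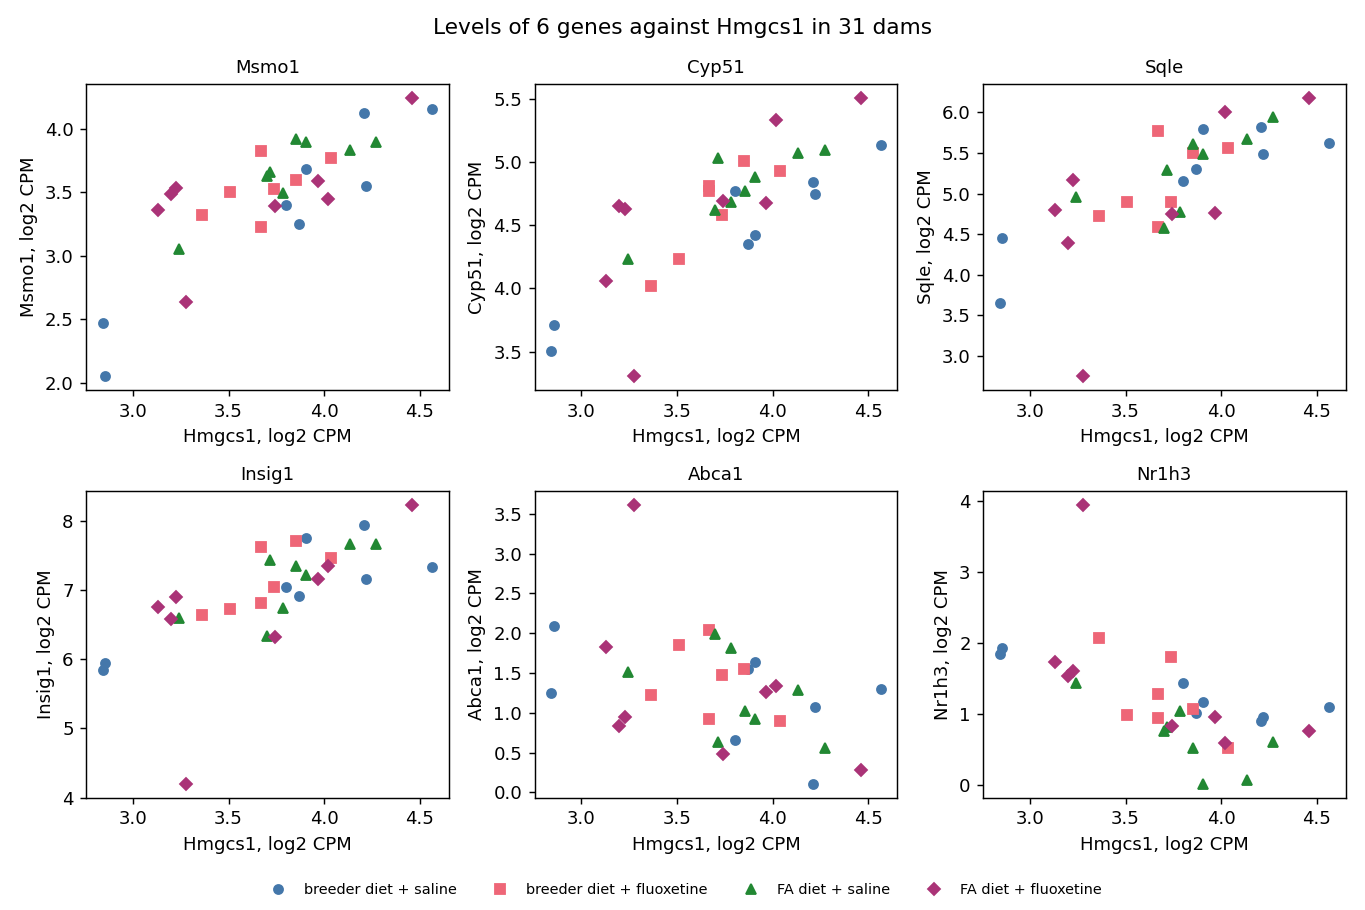
Levels of Msmo1, Cyp51, Sqle, Insig1, Abca1 and Nr1h3 (y axes, log2 CPM) against Hmgcs1 (x axes, log2 CPM) in 31 dams, with symbols for the 4 groups. The first 4 genes are higher where Hmgcs1 is higher and Nr1h3 is lower, and dam 3 of FA diet + fluoxetine lies off the others with the lowest Insig1 (18.3 CPM) and the highest Nr1h3 (15.3 CPM).

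A pair of dams of FA diet + fluoxetine held many of the extreme values. Dam 4 was the highest of 31 dams for 14 of the 32 genes, 12 of them synthesis enzymes, and its 19 synthesis enzymes summed to 587 CPM. Dam 3 was the lowest for 17 genes, 13 of them synthesis enzymes, with a sum of 144 CPM, and the highest for 4, which were Abca1, Abcg1, Nr1h3 and Mylip. In dam 3, Insig1 was at 18.3 CPM and Sqle at 6.62 CPM, and in dam 4 at 299.8 and 72.6 CPM. Hmgcs1 itself was not extreme in dam 3, at 9.60 CPM. Without dam 4 the number of positive slopes past the threshold was 7 of 31, against 0.238% of all genes, and without dam 3 it was 12, against 2.03%. With both left out, an alternative chosen after seeing the data, it was 8, against 0.813%. All 6 genes of highest r passed in each of the 31 fits that left out 1 dam. With the share of the 20 most abundant genes and the total count as covariates, also chosen after seeing the data, 11 passed, against 1.82% of all genes.

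**Figure D5:**
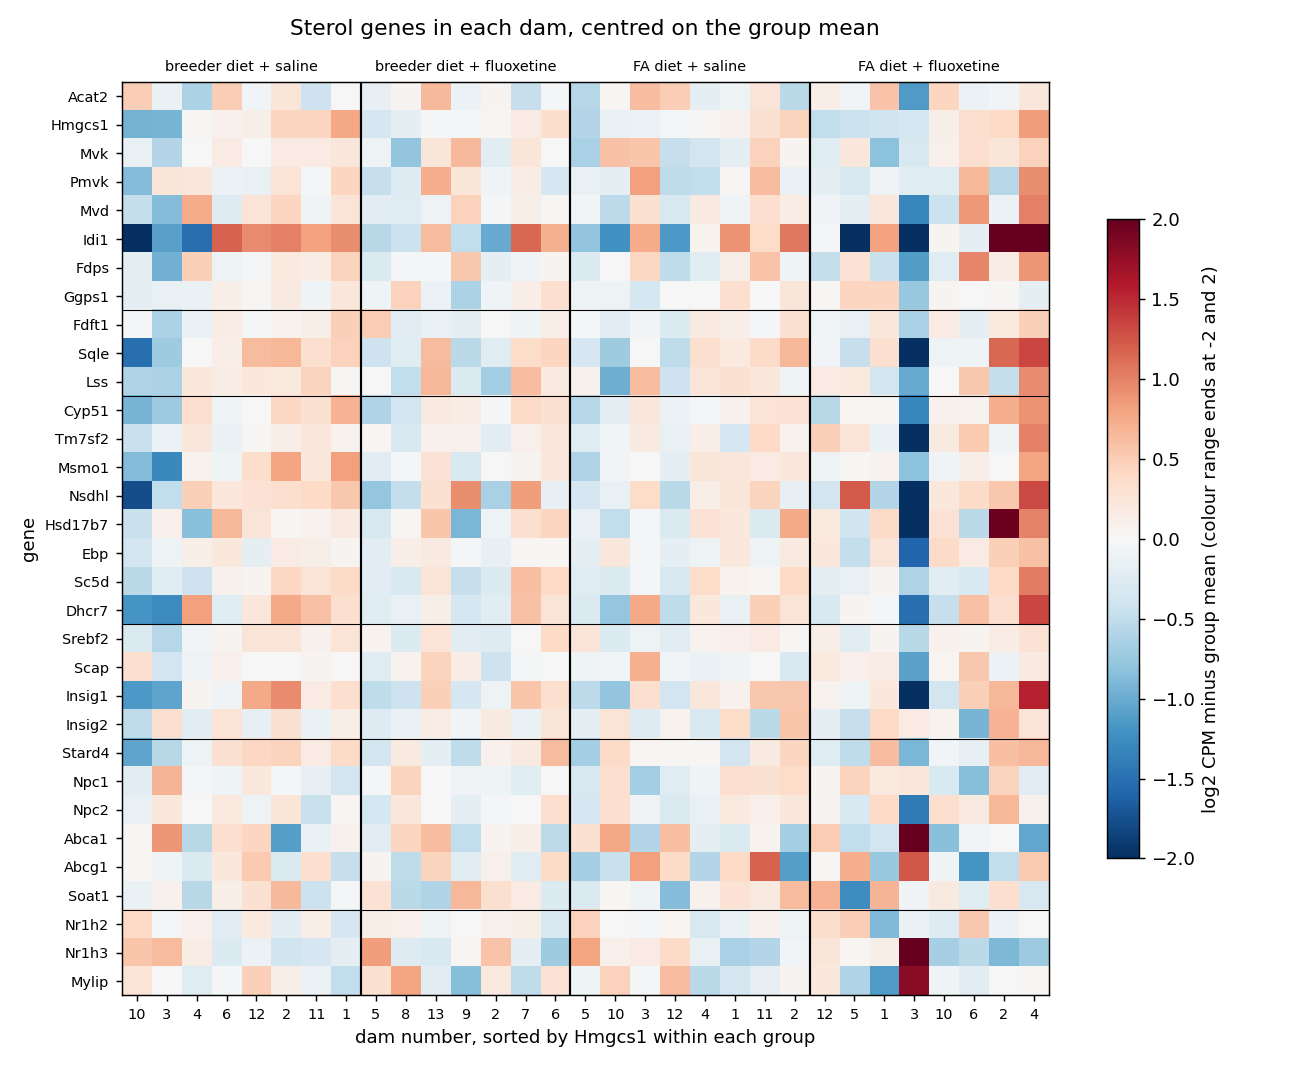
Log2 CPM of the 32 genes (rows, by role) minus the group mean in each of 31 dams (columns, by group and sorted by Hmgcs1 within the group), with red above and blue below the mean and colours capped at 2 log2 units. Dam 4 of FA diet + fluoxetine is red through most synthesis enzymes, and dam 3 of that group is blue there and red for Abca1, Abcg1, Nr1h3 and Mylip.

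Other genes of sterol biology, 36 in lists kept apart from the 32, gave 33 that passed the filter on low counts, and Cyp7b1, Hsd3b7 and Idi2 did not. For fluoxetine 0 of the 33 passed the FDR, against 0.0209% of all genes, and 6 had an unadjusted p of 0.05 or below, against 9.92%. Gramd1a, a carrier of cholesterol from the plasma membrane to the endoplasmic reticulum, differed by 0.46 log2 units (standard error 0.157, adjusted p = 0.370 by edgeR). It averaged 52.2 ± 16.7 (SD, n = 8), 70.7 ± 20.8 (SD, n = 7), 46.5 ± 16.9 (SD, n = 8) and 65.2 ± 24.8 CPM (SD, n = 8) in the order of groups above. Its relative Gramd1c had -0.41 (standard error 0.164, adjusted p = 0.424 by edgeR). Mbtps2, the protease that releases SREBP from the Golgi membrane, had -0.35 (standard error 0.151). Pggt1b, a subunit of the enzyme that attaches geranylgeranyl groups to proteins, had 0.31 (standard error 0.128). For the FA diet 0 of the 33 passed the FDR (0% of all genes) and 1 had an unadjusted p of up to 0.05, against 5.08% of all genes. It was Dhdds, a subunit of the enzyme for the long isoprenoid dolichol, with 0.27 (standard error 0.115). For the interaction it was 0 and 0, against 0% and 3.84% of all genes. Of these 33 genes, 1 had a positive slope on Hmgcs1 past the FDR of 10%, against 1.47% of all genes, and 0 a negative one, against 1.0%. It was Acat1, the mitochondrial thiolase, with 0.49 (standard error 0.132, adjusted p = 0.0641 in limma) and r = 0.60. Acat2 and the near-identical Acat3 may share reads, so their levels are uncertain.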

How the data were processed

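RNA of 31 mammary glands was sequenced as 1 library per dam. The authors evaluated reads with FastQC 0.11.7, trimmed them with Trim Galore 0.4.4, aligned them to the GRCm39 build in Hisat2, and obtained gene counts from htseq-count (intersection-nonempty). The deposited files hold these whole-number counts by Ensembl gene, not normalized. The annotation release and the strand option are not given in the sources used here. Ensembl genes were matched to symbols by GENCODE vM39, which lacked 667 of 55379.

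Counts were analysed in R 4.3.3 with edgeR 4.0.16: filterByExpr by group (14362 genes left, 41017 removed), TMM, robust dispersion, a model of the 4 groups and quasi-likelihood tests of fluoxetine, FA diet and their interaction, adjusted by Benjamini-Hochberg over all genes tested at an FDR of 10%. A log2 fold change is the whole difference of a factor's levels, as the mean over both levels of the other, and has a 95% interval. Slopes on Hmgcs1 were fitted in limma 3.58.1 on log2 CPM with a prior count of 2. Correlations on group-centred values were permuted within groups 100000 times, for the 6 genes with the highest and the 3 with the lowest r. Their permutation p-values were not adjusted for this choice of genes by the same r. The steps were tested on simulated data. Log2 fold changes, most with standard errors, are given for genes at an unadjusted p of up to 0.05 in a comparison, or the 3 of smallest p. The members, lists, tests and naming rules were chosen with earlier results of these data known. Alternatives included DESeq2 1.42.0, other filters and normalizations, other reference genes, the animal number as a block, and leaving out each dam.

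Depth per dam lay between 15412542 and 36000439 counts, with a common dispersion of 0.169: variation among dams set the precision for all but the rarest genes. Within groups, no pair of libraries matched within counting error (chi-square per degree of freedom at least 14.4), and each counted as 1 dam. Promoter sequences came from RefSeq (GRCm38.p6), and motifs were searched on both strands. Animal numbers recur between groups but no shared litter or batch is stated, and the models have no block. Serum and serotonin measurements were not analysed here, and some genes that the naming rule selects are not reported here.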

Additional observations from a re-analysis of the deposited data

Results flagged for a closer look

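In groups of 7 or 8 dams, a value was set apart where the gap between the highest or lowest dam and the nearest other dam took an unusually large part of the group's whole range (Dixon's test, 95% limit). Of 132 sets of values tested, 14 were so set apart, and every gene value among them was the highest of its group. The limit gives about 1 in 20 by chance only for normally distributed values in independent sets. CPM need not be normally distributed and the sets share dams, so the 14 cannot be read as an excess over chance. At dam 3 of FA diet + fluoxetine lay 4 of the 14: Nr1h3 at 15.3 CPM (next dam 3.25), Mylip at 25.7 CPM (next 8.45), Abca1 at 12.1 CPM (next 3.47), and the share of the 20 most abundant genes at 39.3% (next 72.6%). The other 10 were spread over other dams. In FA diet + fluoxetine, Msmo1 was 18.9 CPM in dam 4. In breeder diet + fluoxetine, Acat2 was 57.7 CPM in dam 13, Fdps 36.6 CPM in dam 9, Fdft1 33.0 CPM in dam 5 and Npc1 9.53 CPM in dam 8. In breeder diet + saline, Npc1 was 12.5 CPM in dam 3. In FA diet + saline, Scap was 63.9 CPM in dam 3 and Nr1h2 31.9 CPM in dam 5. The 20 most abundant genes held 60.5% in dam 13 of breeder diet + fluoxetine and 70.1% in dam 3 of FA diet + saline.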

How the results depend on the processing

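Under each alternative, 0 of the 32 genes passed the FDR of 10% for fluoxetine, the FA diet or the interaction. The number with an unadjusted p of 0.05 or below for fluoxetine (1 in the report) was 0 when tested on the breeder diet alone (4.39% of all genes). It was also 0 with the share of the 20 most abundant genes as covariate, which was chosen after seeing the data. On the breeder diet alone the log2 fold change of fluoxetine was -0.013 for Nr1h3 and -0.066 for Mylip, opposite in sign to the averaged effect. For the FA diet (1 in the report) the number was 2 under saline alone (6.09% of all genes). For the interaction (2 in the report) it was 1 without robust estimation and 0 with the share as covariate. In the fits without robust estimation and with that covariate, the percentage of all genes at this level was not counted. The number of positive slopes past the FDR (12 in the report) was 19 with Sqle as reference gene, where 17.0% of all genes passed. The causes were not tested. Leaving out each dam in turn, the numbers with an unadjusted p of 0.05 or below lay between 0 and 2 for fluoxetine, 0 and 3 for the FA diet, and 0 and 3 for the interaction. The percentage of all genes at this level was counted only without dam 3 of FA diet + fluoxetine, as given above. Positive slopes past the FDR numbered between 7 (without dam 4 of FA diet + fluoxetine) and 13, where between 0.238% and 2.69% of all genes passed. Dams with the same animal number showed no tie in every pair: r of their deviations was over 0.1 in 12 of 28 pairs, with a median of 0.079 and a range from -0.22 to 0.43, and 4 of 27 dams matched their own number best. With the animal number as a replicate block, the unadjusted p was up to 0.05 in 2 genes for fluoxetine (6.73% of all genes), 2 for the FA diet (6.18%) and 0 for the interaction (3.11%), and 0 slopes passed the FDR (0% of all genes). The slopes of the 6 genes of highest r were then between 0.60 and 0.86 and that of Nr1h3 -0.58. Genes with few counts, such as Idi1, are limited by depth.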

Other observations

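Outside the sterol lists, some genes had slopes on Hmgcs1 as steep in relation to their error as those of the synthesis enzymes. They were chosen after their values were seen, from the genes of smallest p in the limma fit over 14361 genes with the 4 groups as a factor. Scd2, a desaturase that makes monounsaturated fatty acids, had a slope of 1.82 (standard error 0.272, r = 0.79). The endoplasmic reticulum chaperone Hspa5 had 1.18 (standard error 0.196, r = 0.76), and the disulfide isomerase Pdia4 0.82 (standard error 0.149, r = 0.74). Cyb5b, an electron carrier of the outer mitochondrial membrane, had 0.67 (standard error 0.113, r = 0.78). In the other direction, Fbxo31, a substrate adaptor of a ubiquitin ligase, had -0.92 (standard error 0.125, r = -0.84), and the sulfotransferase Sult1a1 -0.98 (standard error 0.171, r = -0.75). Pnpla2, the first lipase of fat stores, had -0.80 (standard error 0.155, r = -0.72). The range of adjusted p-values over these 7 genes was 2.07e-04 to 0.0121.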
